A study of Mus musculus with 17 samples.

Results

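Chemokine receptors other than Ccr7 and Xcr1 were described in splenic conventional dendritic cells (cDCs) that had met live, apoptotic or necroptotic tumor cell material. The set was defined by gene names and held 8 of the 31091 genes in the count table: Ccr1, Ccr2, Ccr6, Ccr9, Cxcr3, Cxcr4, Cxcr5 and Cx3cr1. All 8 were in the table and passed the filter on low counts in each main fit. Spleens came from 8-week-old female C57BL/6JRj mice that carried a B16 tumor secreting FLT3L, a growth factor that expands dendritic cells, and spleens of at least 2 mice were pooled. Their CD11c+ cells were exposed for 6 h, as a mixed culture, to medium of TC-1 cells, a mouse lung epithelial tumor line. XCR1+ CD8α+ cDC1s and SIRPα+ CD11b+ cDC2s were sorted from that culture afterwards. The paper's protocol for such cultures adds the cytokine GM-CSF to improve survival. WT medium came from unmodified TC-1 cells, which stayed alive, BimS medium from TC-1-iBimS cells, in which the inducer cumate switches on the apoptosis trigger BimS, and RIPK3 medium from TC-1-iRIPK3 cells, in which it switches on an oligomerizing RIPK3 and with it necroptosis. Cumate was given to the WT cells too, and each inducible line was grown from a single cell, so that a debris type and its clone cannot be told apart. There were 3 samples in each of the 6 groups of cell type and medium, except for 2 in cDC2s with RIPK3 medium, and no source says that samples of a group came from separate pools of mice, so that p-values measure the spread between these samples.

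Chemokine receptors are G protein-coupled receptors that steer cells along gradients of chemokines. On ligand binding, they signal through Gαi and Gβγ proteins to phospholipase C, PI3 kinase and Rac, and are then phosphorylated by G protein-coupled receptor kinases, bound by β-arrestins and internalized. In dendritic cells, the receptors in use change with maturation: tissue-seeking receptors such as Ccr1, Ccr2 and Ccr6 are typical of immature cells, whereas Ccr7 guides mature cells to the T-cell zone.

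The samples held between 16095159 and 21645289 counts on genes (median 18986002). The sorted populations carried the genes of their sorting markers. With WT medium Xcr1 had 152 ± 6.50 CPM (SD, n = 3) in the cDC1 samples and 0.507 ± 0.0590 CPM (n = 3) in the cDC2 samples. Sirpa had 1.43 ± 0.389 and 191 ± 16.4 CPM. Of 10 cDC1 genes listed as markers, 10 were higher in cDC1s. Of 10 cDC2 genes, 9 were lower and 1 was higher in cDC1s. The latter was Clec12a, with 92.0 ± 9.84 CPM in cDC1s and 7.07 ± 1.16 CPM in cDC2s with WT medium. CPM are counts scaled to the size of each library after TMM normalization. Of the markers of other leukocytes, Cd79a, Pax5, Cd3e, Siglech and Ly6c2 each had a mean below 1 CPM in all 6 groups, but other genes of the same lists were higher. Of 12 monocyte and macrophage genes, 4 to 6 had a mean of at least 1 CPM in each group, led by Cd14, of 9 plasmacytoid DC genes 2 to 3, led by Tcf4, of 13 T and NK cell genes 1 to 2, led by Klrd1, and of 11 B cell genes 0 to 1. With WT medium, Csf1r had 18.6 ± 2.96 and Fcgr1 15.2 ± 2.61 CPM in cDC2s, and Lyz2 24.8 ± 2.08 and Pacsin1 15.5 ± 2.06 CPM in cDC1s. In bulk samples, fewer cells that express a gene and less RNA of it per cell cannot be told apart.

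The 8 receptors are protein-coding genes that lie, on GRCm39, at chr9:123762161-123768734 on the minus strand (Ccr1), chr9:123901982-123913594 on the plus strand (Ccr2), chr17:8454869-8475973 on the plus strand (Ccr6), chr9:123507181-123613395 on the plus strand (Ccr9), chrX:100775141-100777875 on the minus strand (Cxcr3), chr1:128515936-128520044 on the minus strand (Cxcr4), chr9:44423083-44473174 on the minus strand (Cxcr5) and chr9:119877749-119898945 on the minus strand (Cx3cr1). Ccr9, Ccr1 and Ccr2 share a cluster of receptor genes on chromosome 9, in the order Ccr9, Cxcr6, Xcr1, Ccr1, Ccr1l1, Ccr3 and Ccr2, and span 406414 bases from the start of Ccr9 to the end of Ccr2. Of the 54-base words of the Ccr9 transcripts, 5.07% also occurred in Gm17200, a lncRNA on the same strand. Ccr1, Ccr6, Cxcr3, Cxcr4 and Cxcr5 shared no word of this length, that of a read, with another gene. Exons of Ccr6 overlap those of the antisense lncRNA Gm33799 over 46.7% of their bases, but Gm33799 had at most 2 counts in a sample. Exons of Ccr9 overlap those of the antisense lncRNA Gm17021 over 18.3% of their bases, and Gm17021 had at most 19 counts. The exons of Cxcr5 overlap those of the antisense gene Bcl9l over 118 bases, 3.54% of the exon bases of Cxcr5, and Bcl9l had up to 1639 counts. The sources used here do not say whether counting used the strand, so that reads from such overlaps cannot be told apart.

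RefSeq gave a promoter window of 300 bases for 7 of the 8 receptors, on GRCm38.p6. The windows of Ccr1, Ccr2 and Cxcr4 are shown because these were the receptors that passed the test against WT medium. They are written 5′ to 3′ in the direction of the gene, with matches to the GC box (GGGCGG) and the TATA box (TATAAA) on either strand in capitals.
Ccr1, chr9:123968643-123968942, minus strand: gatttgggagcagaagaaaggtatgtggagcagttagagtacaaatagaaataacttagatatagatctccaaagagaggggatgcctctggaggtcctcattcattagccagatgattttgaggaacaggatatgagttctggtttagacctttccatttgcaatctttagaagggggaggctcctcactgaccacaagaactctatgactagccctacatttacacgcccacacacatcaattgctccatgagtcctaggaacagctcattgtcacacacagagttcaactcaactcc
Ccr2, chr9:124101933-124102232, plus strand: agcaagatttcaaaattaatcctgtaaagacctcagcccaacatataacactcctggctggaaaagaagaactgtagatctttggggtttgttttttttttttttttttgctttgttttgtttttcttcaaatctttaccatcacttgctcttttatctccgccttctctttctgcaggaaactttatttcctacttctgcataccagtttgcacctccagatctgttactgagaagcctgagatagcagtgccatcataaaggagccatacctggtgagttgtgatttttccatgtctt
Cxcr4, chr1:128592250-128592549, minus strand: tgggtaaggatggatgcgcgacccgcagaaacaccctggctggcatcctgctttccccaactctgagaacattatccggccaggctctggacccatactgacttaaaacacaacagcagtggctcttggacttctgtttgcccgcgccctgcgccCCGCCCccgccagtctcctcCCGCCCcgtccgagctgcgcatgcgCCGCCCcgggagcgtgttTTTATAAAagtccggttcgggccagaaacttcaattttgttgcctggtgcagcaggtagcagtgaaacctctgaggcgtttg

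The window of Cxcr4 held 3 GC boxes and 2 TATA matches that overlap each other, 1 on each strand, whereas those of Ccr1 and Ccr2 held neither motif. Among all 32851 windows, 35.7% held a GC box and 13.6% a TATA box. The Cxcr4 window had 20 CpG dinucleotides and 59.3% G and C, against medians of 7 and 52.7% over all windows. The Ccr1 and Ccr2 windows had 1 CpG each, and 5.43% of all windows had fewer. These are descriptions of letters and say nothing of factors that bind there.

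**Figure D1:**
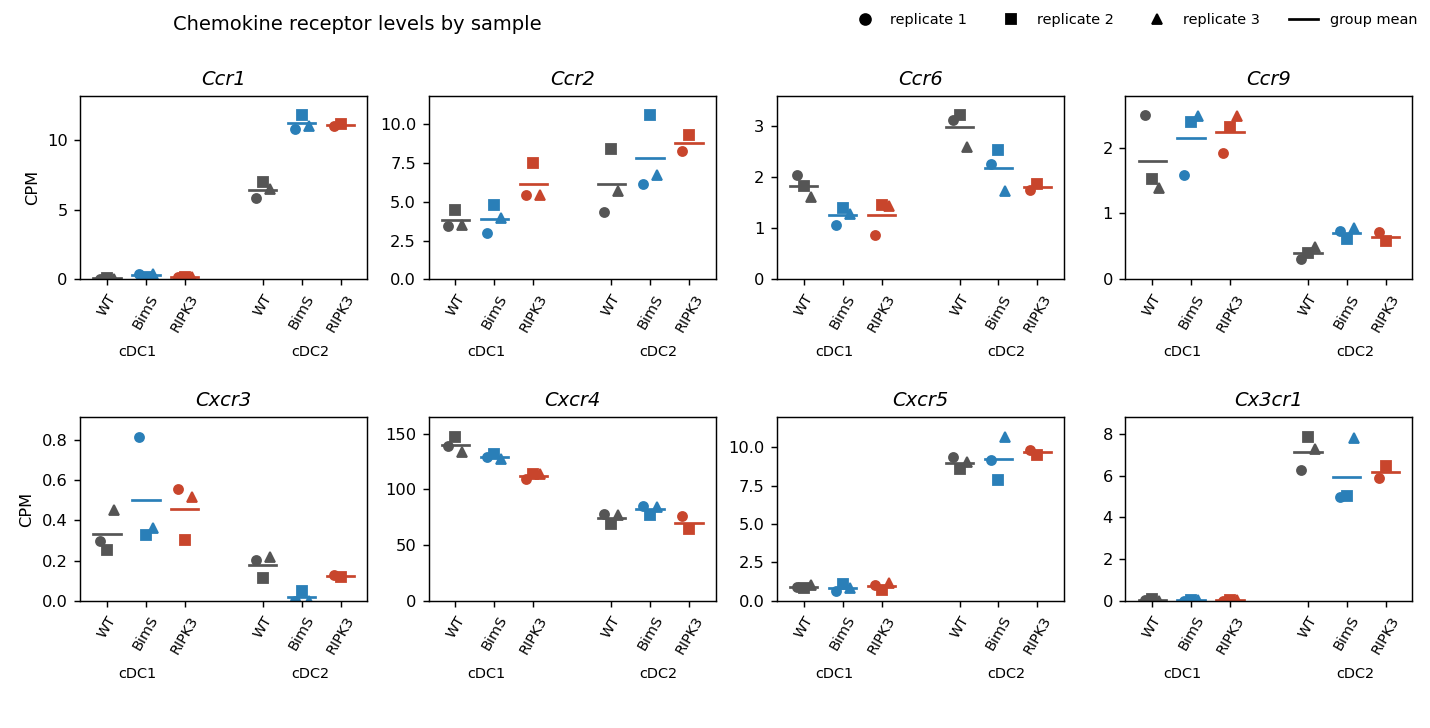
Level of each receptor in CPM (y axes, linear from 0) in every sample, by medium (x axes) and cell type, with symbols for the replicate number and a line at the group mean. Cxcr4 lies between 64.7 and 147 CPM in every sample, the other receptors stay below 12 CPM, and the sets of cDC1 and cDC2 samples do not overlap for 6 of the 8 receptors, the exceptions being Ccr2 and Ccr6.

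Which receptors each cell type expressed was asked first, in a fit of the 17 samples that also held the medium. Between cDC1s and cDC2s 8 of 8 receptors differed, where 59.8% of all genes tested did. Ccr9, Cxcr3 and Cxcr4 were higher in cDC1s, and Ccr1, Ccr2, Ccr6, Cxcr5 and Cx3cr1 were higher in cDC2s. For 6 of them the 9 cDC1 samples and the 8 cDC2 samples did not overlap, while Ccr2 and Ccr6 overlapped; over all genes tested, 29.4% did not overlap. The calls were made by edgeR's quasi-likelihood test with Benjamini-Hochberg adjustment over all genes, as were all those that follow unless another tool is named.

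Cx3cr1, the receptor of fractalkine, was at or near the limit of detection of 3 counts in cDC1s. It had between 0 and 2 counts in each of the 9 cDC1 samples, so that no fold change is given, and between 82 and 137 counts in each cDC2 sample (adjusted p = 7.01e-22). In cDC2s its lowest level was 4.99 CPM, its median 6.35 and its highest 7.86. Ccr1, a receptor of inflammatory CC chemokines such as Ccl3 and Ccl5, had 1 to 8 counts in cDC1 samples and 114 to 232 in cDC2 samples (adjusted p = 3.67e-24). With WT medium the cDC1 samples were at the limit of detection for Ccr1, so that no fold change over the media is given; with BimS and RIPK3 medium its log2 fold changes, cDC1 over cDC2, were -5.20 ± 0.217 (SE) and -5.93 ± 0.256 in the fit of 6 groups, on 3 to 8 counts in the cDC1 samples. Cxcr5, the Cxcl13 receptor that leads B cells and some T cells into follicles, ranged from 0.662 to 1.15 CPM (median 0.897) in cDC1s and from 7.88 to 10.7 CPM (median 9.26) in cDC2s, and its log2 fold change, cDC1 over cDC2, was -3.34 ± 0.110 (adjusted p = 5.88e-22). Counts on Cxcr5 were between 13 and 23 in cDC1 samples, so that it was low but detected there.

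Ccr2, the Ccl2 receptor through which monocytes leave the marrow, was lower in cDC1s, and its log2 fold change was -0.74 ± 0.147 (adjusted p = 0.000157). Ccr6, the receptor of Ccl20 that draws cells to mucosal epithelia, differed by about as much, with -0.69 ± 0.135 (adjusted p = 4.40e-05). Taken medium by medium in the fit of 6 groups, these differences passed the test with WT medium (adjusted p = 0.0374 and 0.00652) and with BimS medium (0.00244 and 0.00612), but not with RIPK3 medium, where they were -0.52 ± 0.262 for Ccr2 (adjusted p = 0.127) and -0.54 ± 0.278 for Ccr6 (adjusted p = 0.126). Within pairs of samples with the same medium and replicate number, however, both receptors were lower in the cDC1 sample in 8 of 8 pairs, the RIPK3 pairs included, where 45.6% of all genes kept a single direction in all 8 pairs. When the fit of 6 groups was blocked by replicate number, the difference of Ccr2 with RIPK3 medium passed the test (-0.47 ± 0.154, adjusted p = 0.0116), as it did with the number within each medium as a block (-0.44 ± 0.171, 0.0388), while that of Ccr6 did not (-0.48 ± 0.283, 0.173, and -0.65 ± 0.319, 0.112). These blocks were chosen after seeing the data.

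Ccr9, the Ccl25 receptor that directs cells to the small intestine and is also abundant on plasmacytoid DCs, was higher in cDC1s, from 1.39 to 2.49 CPM (median 2.31) against 0.308 to 0.775 CPM (median 0.598) in cDC2s (log2 fold change 1.83 ± 0.182, adjusted p = 3.15e-10). The plasmacytoid DC list went both ways between the cell types, with 1 of 7 tested genes higher and 5 lower in cDC1s. With WT medium Pacsin1 had 15.5 ± 2.06 CPM in cDC1s and 1.76 ± 0.346 in cDC2s, while Siglech had 0.1117 ± 0.0532 and 0.565 ± 0.179 and Tcf4 43.0 ± 3.73 and 177 ± 9.63 CPM. The part of plasmacytoid DCs in the difference of Ccr9 was not tested. Cxcr4, the Cxcl12 receptor that holds cells in marrow and lymphoid tissue, ranged from 109 to 147 CPM (median 129) in cDC1s and from 64.7 to 85.4 CPM (median 77.3) in cDC2s (log2 fold change 0.75 ± 0.0470, adjusted p = 7.06e-15). Cxcr3, the receptor of the interferon-induced chemokines Cxcl9 and Cxcl10, had 5 to 16 counts in cDC1 samples and 0 to 4 in cDC2 samples (adjusted p = 0.000209). The cDC2 samples with BimS and RIPK3 medium were at the limit of detection for Cxcr3, so that no fold change over the media is given. This call was lost in the 6 samples with WT medium alone, where the log2 fold change was 0.89 (adjusted p = 0.265). In the fit of 6 groups the difference of Cxcr3 passed the test with BimS medium (adjusted p = 8.60e-05) and with RIPK3 medium (0.0400), the latter not with the replicate number (0.0540) or the number within each medium (0.110) as a block.

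**Figure D2:**
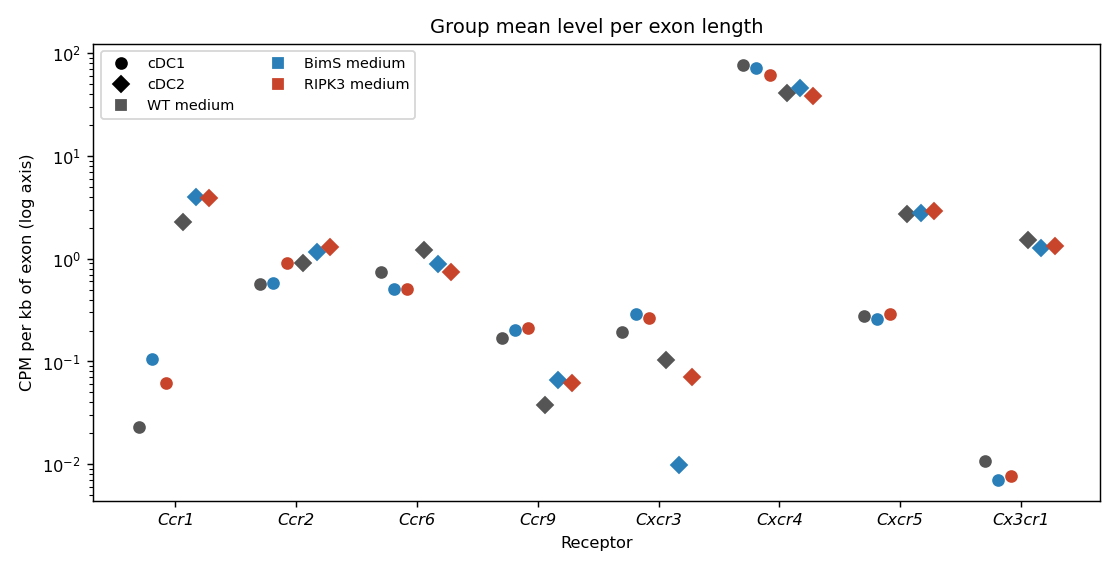
Mean level of each receptor per kb of exon (y axis, CPM per kb, log scale) in the 6 groups, by receptor (x axis), with circles for cDC1s, diamonds for cDC2s and colors for the media. Cxcr4 stands above the other receptors in all 6 groups, at 38.5 to 76.8 CPM per kb; the lowest points, Cx3cr1 and Ccr1 in cDC1s and Cxcr3 and Ccr9 in cDC2s, rest on at most 13 counts a sample.

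Levels of different receptors were compared per kb of exon, since longer transcripts collect more reads. Cxcr4 was the most abundant receptor of the 8 in each group. It made up 97.5% of their summed level per kb in cDC1s and 82.4% in cDC2s with WT medium. With WT medium, cDC1s had 76.8 ± 3.73 CPM per kb of Cxcr4 (SD, n = 3), and the next receptors were Ccr6 with 0.747 ± 0.0869 and Ccr2 with 0.562 ± 0.0861. Below them were Cxcr5 with 0.279 ± 0.0268, Cxcr3 with 0.193 ± 0.0589 and Ccr9 with 0.170 ± 0.0566 CPM per kb. The last 2 did not differ beyond their spread, and when length was taken from the canonical transcript, Ccr9 (0.347) stood above Cxcr3 (0.193). In cDC2s with WT medium, 41.0 ± 2.96 CPM per kb of Cxcr4 were followed by 2.695 ± 0.120 of Cxcr5, 2.27 ± 0.203 of Ccr1, 1.53 ± 0.174 of Cx3cr1, 1.22 ± 0.138 of Ccr6 and 0.904 ± 0.306 of Ccr2. The ranges of mean ± SD of Ccr6 and Ccr2 overlapped. Cxcr3 and Ccr9 came last, with 0.103 ± 0.0321 and 0.0376 ± 0.00840 CPM per kb. With BimS and RIPK3 medium, Ccr1 took the place after Cxcr4 in cDC2s, at 3.95 ± 0.180 and 3.91 ± 0.0186 (n = 2) CPM per kb.

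How the debris of dying cells moved the receptors was asked next, within each cell type. In cDC1s, RIPK3 medium raised Ccr2 and lowered Cxcr4, so that 2 of 8 receptors were called where 16.5% of all genes were, and BimS medium changed none by this test, where 13.2% of all genes were called. In cDC2s, both debris types raised Ccr1, 1 of 8 receptors, where 7.01% of all genes were called with BimS and 7.21% with RIPK3 medium. These backgrounds depended on single libraries: the 1349 genes called with BimS medium in cDC2s became 783 without WT replicate 2, 896 without BimS replicate 1 and 878 without BimS replicate 2, and the 1387 called with RIPK3 medium became 915 without WT replicate 2, 658 without RIPK3 replicate 1 and 622 without RIPK3 replicate 2, while Ccr1 was called in each of these fits. With the replicate number as a block, 3 of 8 receptors were called with each debris type in cDC2s. These were Ccr1 and Ccr2 with both, Cxcr4 with BimS and Ccr6 with RIPK3 medium. Over all 19239 genes tested, 4103 and 4124 were called with this block. For BimS against WT medium in cDC1s, 3 receptors had an unadjusted p under 0.05, Ccr1, Ccr6 and Cxcr4, where 22.9% of all genes did. In that comparison DESeq2 called 0 receptors and limma on log2 CPM 1, Ccr1. Against WT medium, the samples of the groups did not overlap for 3 of 8 receptors with BimS and 4 with RIPK3 medium in cDC1s, where this held for 29.5% and 29.9% of all genes, and for 4 and 4 in cDC2s, where it held for 23% and 34.1%. Between the debris types it was 2 receptors in each cell type, where it held for 19.2% of all genes in cDC1s and 26.8% in cDC2s.

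**Figure D3:**
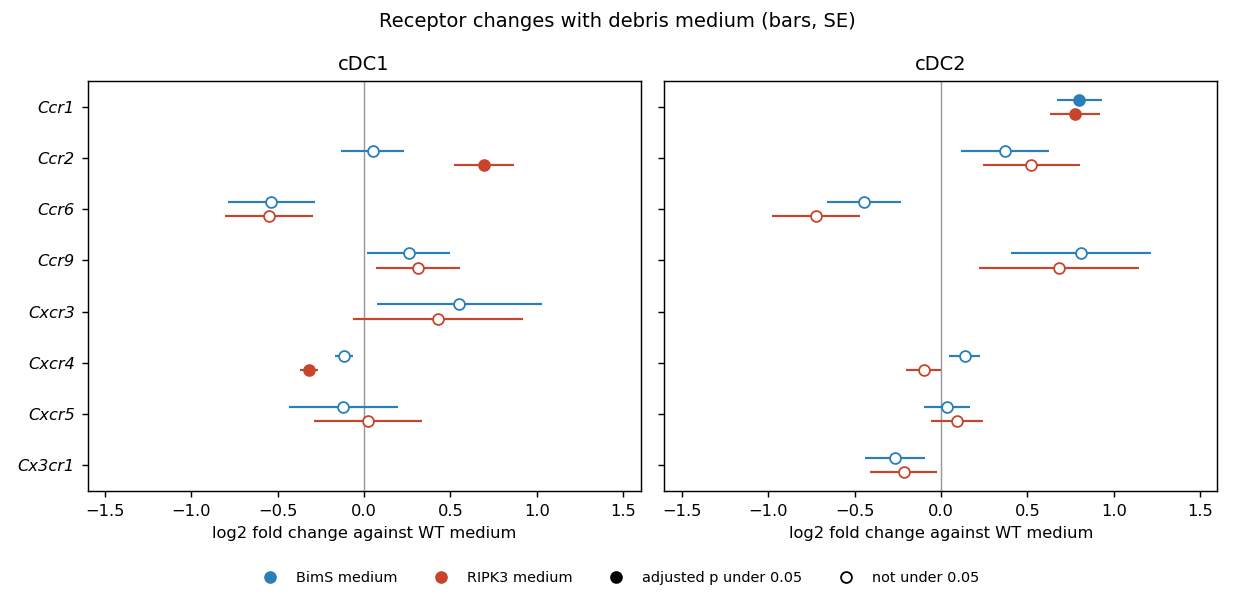
Log2 fold change (x axes, bars SE) of each receptor (y axis) against WT medium in cDC1s and cDC2s, with BimS medium in blue and RIPK3 medium in red and filled symbols for an adjusted p under 0.05. Values are left out where a group had 3 counts or fewer in every sample, which applies to Ccr1 and Cx3cr1 in cDC1s and Cxcr3 in cDC2s; the filled symbols are Ccr2 (0.70) and Cxcr4 (-0.32) with RIPK3 medium in cDC1s and Ccr1 (0.80 and 0.78) in cDC2s.

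Of the inflammatory CC receptors, Ccr1 responded in cDC2s. The WT samples had 5.85, 7.00 and 6.47 CPM, the BimS samples 10.8, 11.8 and 11.0, and the RIPK3 samples 11.1 and 11.1. Every sample with debris thus stood above every WT sample, and the debris groups overlapped. The rise was 1.74-fold with BimS medium (log2 fold change 0.80 ± 0.128 SE, adjusted p = 0.000328), and 1.71-fold with RIPK3 medium (0.78 ± 0.143, adjusted p = 0.00119). RIPK3 against BimS differed by -0.02 ± 0.138 (adjusted p = 0.977). The rises against WT held in the 9 other settings and in the 8 fits that left out 1 cDC2 sample, with adjusted p up to 0.00404 for BimS and 0.0418 for RIPK3. Of the 12 monocyte and macrophage genes, 1 rose with BimS medium in cDC2s, and 1 rose and 1 fell with RIPK3 medium. Cd14 rose, from 33.7 ± 3.56 CPM with WT to 46.5 ± 7.22 with BimS and 61.8 ± 10.3 with RIPK3 medium, and Fcgr1 fell with RIPK3 medium, with 15.2 ± 2.61, 13.4 ± 1.34 and 9.77 ± 1.01 CPM. Csf1r had 18.6 ± 2.96, 18.2 ± 2.41 and 13.9 ± 1.86 CPM and Lyz2 6.94 ± 2.38, 5.97 ± 3.26 and 5.67 ± 2.34 CPM, which did not pass the test. The sum of the list ranged from 67.6 to 92.1 CPM with WT, 77.6 to 98.3 with BimS and 86.9 to 111 with RIPK3 medium, and without Cd14 from 37.6 to 55.0, 38.2 to 52.0 and 32.3 to 42.4 CPM. The part of monocytes and macrophages in the rise of Ccr1 was not tested.

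In cDC1s, Ccr1 had 1, 2 and 1 counts with WT medium, 7, 3 and 8 with BimS and 3, 4 and 3 with RIPK3 medium. The WT samples were at the limit of detection, so no fold change is given. The BimS difference had an adjusted p of 0.0637 and passed the threshold in 3 of the other settings, with adjusted p of 0.0454 by limma on log2 CPM, 0.0469 by limma on the deposited values and 0.0219 in one fit of all 6 groups.

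Ccr2 responded to RIPK3 medium in cDC1s. Its levels were 3.44, 4.48 and 3.50 CPM with WT medium, 2.95, 4.81 and 3.97 with BimS medium and 5.46, 7.53 and 5.41 with RIPK3 medium. All RIPK3 samples were above all others, and the WT and BimS samples overlapped. The rise against WT was 1.62-fold (log2 fold change 0.70 ± 0.173, adjusted p = 0.00341), and that against BimS 1.56-fold (0.65 ± 0.172, adjusted p = 0.0240). BimS differed from WT by 0.05 ± 0.183 (adjusted p = 0.920). Between the debris types 2 of 8 receptors, Ccr2 and Cxcr4, were called where 4.15% of all genes were (810 genes, and 489 without BimS replicate 3). The call against WT was lost in one fit of all 6 groups (adjusted p = 0.0922) and without RIPK3 replicate 2 (0.0608). That against BimS was lost in the fit of all 6 groups (0.305), by limma on log2 counts without normalization (0.0834), and without BimS replicate 1 (0.144), BimS replicate 3 (0.0747) or RIPK3 replicate 2 (0.216). Of the monocyte and macrophage genes, 11 were tested in cDC1s, of which 1 fell with RIPK3 medium against WT and against BimS. This was Fcgr1, at 5.00 ± 0.674, 2.43 ± 0.488 and 1.15 ± 0.212 CPM with WT, BimS and RIPK3 medium. Cd14 had 136 ± 32.4, 95.6 ± 23.6 and 155 ± 36.3 CPM, Csf1r 2.51 ± 0.888, 1.83 ± 0.360 and 1.61 ± 0.107 CPM and Ly6c2 0.447 ± 0.213, 0.659 ± 0.0904 and 0.614 ± 0.154 CPM, none of which passed the test. The sum of the list overlapped between the groups, with 153 to 212 CPM in WT, 112.4 to 159 in BimS and 145 to 228 in RIPK3 samples, as did the sum without Cd14, with 34.2 to 38.4, 31.6 to 36.4 and 27.5 to 38.0 CPM. The part of monocytes and macrophages in the rise of Ccr2 was not tested.

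In cDC2s, Ccr2 was at 4.31, 8.38 and 5.66 CPM with WT medium, 6.14, 10.6 and 6.74 with BimS medium and 8.28 and 9.32 with RIPK3 medium, and these groups overlapped. The log2 fold changes against WT, 0.37 ± 0.255 for BimS (adjusted p = 0.513) and 0.52 ± 0.282 for RIPK3 (0.374), did not pass the test. In all 6 groups the sample with replicate number 2 was the highest. With the replicate number as a block, both differences were called, with log2 fold changes of 0.36 (adjusted p = 0.0269) and 0.45 (0.0141).

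Of the mucosal homing receptors, Ccr6 was lower with debris in both cell types but passed the test in neither. In cDC1s it was at 2.04, 1.83 and 1.62 CPM with WT medium, 1.07, 1.40 and 1.29 with BimS and 0.860, 1.46 and 1.44 with RIPK3 medium. In cDC2s it was at 3.13, 3.21 and 2.59 CPM with WT medium, 2.25, 2.54 and 1.73 with BimS and 1.75 and 1.87 with RIPK3 medium. In each cell type, every debris sample lay below every WT sample. Counts were between 17 and 61 per sample, and the log2 fold changes against WT were -0.54 ± 0.251 and -0.55 ± 0.255 in cDC1s (adjusted p = 0.187 and 0.157) and -0.45 ± 0.216 and -0.72 ± 0.255 in cDC2s (0.281 and 0.105), for BimS and RIPK3 medium. The value for RIPK3 medium in cDC2s passed the threshold with the replicate number as a block (-0.84, adjusted p = 0.00779) and by limma on log2 counts without normalization (-0.87, 0.0466).

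Ccr9 was also not called. In cDC2s it was at 0.308, 0.402 and 0.486 CPM with WT medium, 0.730, 0.610 and 0.775 with BimS and 0.711 and 0.586 with RIPK3 medium, so that every debris sample was above every WT sample, on 6 to 13 counts per sample. The log2 fold changes of 0.81 ± 0.405 (adjusted p = 0.304) and 0.68 ± 0.461 (0.492) did not pass the test. In cDC1s the groups overlapped, with 0.26 ± 0.240 (adjusted p = 0.609) for BimS and 0.31 ± 0.241 (0.470) for RIPK3 medium.

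Of the CXC receptors, Cxcr4 changed in cDC1s. It was at 139, 147 and 134 CPM with WT medium, 129, 132 and 127 with BimS medium and 109, 114 and 114 with RIPK3 medium. The 3 groups did not overlap and were ordered WT, BimS, RIPK3. RIPK3 medium lowered Cxcr4 0.802-fold against WT (log2 fold change -0.32 ± 0.0509, adjusted p = 9.80e-06) and 0.870-fold against BimS (-0.20 ± 0.0511, adjusted p = 0.0152), while BimS against WT did not pass the test (-0.12 ± 0.0505, adjusted p = 0.147). The fall against WT held in the 9 other settings and the 9 fits that left out 1 cDC1 sample, with adjusted p up to 0.00156. The fall against BimS was lost in one fit of all 6 groups (0.186), by limma on log2 counts without normalization (0.147), and without BimS replicate 2 (0.0771) or RIPK3 replicate 1 (0.0506). BimS against WT was called by limma on the deposited values alone (-0.18, adjusted p = 0.0145).

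In cDC2s, Cxcr4 did not follow this order. It was at 78.3, 68.5 and 77.3 CPM with WT medium, 85.4, 77.3 and 84.3 with BimS and 75.7 and 64.7 with RIPK3 medium, and the sample with replicate number 2 was the lowest in each group. The differences were 0.14 ± 0.0887 for BimS against WT (adjusted p = 0.464), -0.10 ± 0.100004 for RIPK3 against WT (0.688) and -0.24 ± 0.1002 for RIPK3 against BimS (0.521). For RIPK3 against BimS in cDC2s, 0 of 8 receptors were called where 0.379% of all genes were, a background of 73 genes that ranged from 0 without RIPK3 replicate 2 to 214 without WT replicate 3 over the fits that left out 1 cDC2 sample. There 1 receptor, Cxcr4, had an unadjusted p under 0.05, where 8.59% of all genes did, and DESeq2 and limma on log2 CPM called 0. With the replicate block, Cxcr4 was higher with BimS than with WT medium (0.14, adjusted p = 0.0336) and lower with RIPK3 than with BimS medium (-0.22, adjusted p = 0.00340).

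Cxcr3 and Cxcr5 were not called for any medium. Cxcr3 in cDC1s had 6, 5 and 10 counts with WT, 16, 7 and 7 with BimS and 11, 6 and 9 with RIPK3 medium. In cDC2s it had 4, 2 and 4, then 0, 1 and 0, then 2 and 2 counts, so that BimS and RIPK3 groups were at the limit of detection and a change was not detectable at this depth. Cxcr5 in cDC2s was at 8.98 ± 0.401, 9.25 ± 1.40 and 9.66 ± 0.238 CPM (n = 3, 3 and 2), with log2 fold changes against WT of 0.03 ± 0.134 (adjusted p = 0.925) and 0.09 ± 0.150 (0.831). Both RIPK3 samples, at 9.83 and 9.49 CPM, lay above the WT samples, at 9.34, 8.55 and 9.06, while the BimS samples, at 9.18, 7.88 and 10.7, overlapped both. In cDC1s its log2 fold changes were -0.12 ± 0.315 (0.895) and 0.02 ± 0.313 (0.974). Of the 11 B cell genes, 9 were tested between the cell types, of which 1 was higher and 3 lower in cDC1s. Cd22 had 1.56 ± 0.253, 1.74 ± 0.459 and 2.74 ± 0.0604 CPM in cDC2s with WT, BimS and RIPK3 medium and 0.260 ± 0.0842, 0.314 ± 0.105 and 0.305 ± 0.137 in cDC1s, and Blk 0.433 ± 0.0461, 0.440 ± 0.0729 and 0.942 ± 0.326 CPM in cDC2s. Ms4a1, Cd79a and Cd79b each had a mean below 1 CPM in all 6 groups. The part of B cells in the cell type difference of Cxcr5 was not tested.

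Cx3cr1 in cDC2s was at 6.26, 7.86 and 7.28 CPM with WT medium, 4.99, 5.03 and 7.81 with BimS and 5.88 and 6.45 with RIPK3 medium. These groups overlapped, and the log2 fold changes against WT of -0.27 ± 0.173 (adjusted p = 0.465) and -0.22 ± 0.196 (0.637) did not pass the test.

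Whether a medium acted differently on the 2 cell types was tested directly as an interaction, cDC1 minus cDC2. None of the 8 receptors was called for BimS against WT, RIPK3 against WT or RIPK3 against BimS, where 0.859%, 1.14% and 0.0314% of all genes were. Of these backgrounds, the 164 genes of the first became 93 without cDC1 WT replicate 1, 104 without cDC1 BimS replicate 1 and 100 without cDC1 BimS replicate 3, the 217 of the second 111 without cDC2 RIPK3 replicate 2, and the 6 of the last ranged from 0 to 10 with a sample left out. At an unadjusted p under 0.05 there were 2, 1 and 0 receptors, where 8.51%, 8.57% and 5.09% of all genes were, and DESeq2 and limma on log2 CPM called 0 in each. The changes of Ccr2 and Cxcr4 in cDC1s and of Ccr1 in cDC2s are therefore not shown to differ from those in the other cell type. For Cxcr4 the interaction was -0.26 ± 0.0985 with BimS medium (adjusted p = 0.367) and -0.23 ± 0.105 with RIPK3 medium (0.535), and for Ccr2 with RIPK3 medium it was 0.16 ± 0.366 (0.961). Ccr1 had too few counts in cDC1s with WT medium for an interaction to be read.

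The other genes of the pathway were followed in 4 lists, with 3 samples a group and 2 for cDC2s with RIPK3 medium. Of 16 other chemokine receptors, 7 were tested in cDC1s. There 1 rose and 2 fell with BimS medium and 2 rose and 1 fell with RIPK3 medium, 42.9% of those tested with each, where 13.2% and 16.5% of all genes were called, with a median log2 fold change of 0.20 and 0.57 against 0.00165 and -0.00558 over all genes. In cDC1s Ccr7 fell by 0.56 (log2 fold change -0.56 ± 0.113, adjusted p = 0.0154) and by 0.68 (-0.68 ± 0.113, 0.00506) on the log2 scale, Xcr1 rose by 0.44 ± 0.0515 (2.62e-08) and 0.57 ± 0.0515 (5.48e-11), and Ccrl2, an atypical receptor that does not signal, changed by -0.83 ± 0.230 (0.0111) and -0.34 ± 0.220 (0.357), for BimS and RIPK3 medium. The Ccr7 call with BimS medium was lost without BimS replicate 3, and the Ccrl2 call without WT replicate 1 or BimS replicate 2.

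Of 17 ligands of the 8 receptors, 13 were tested in cDC1s, of which 1 fell with BimS medium and 1 rose and 3 fell with RIPK3 medium, 7.69% and 30.8% of those tested where 13.2% and 16.5% of all genes were called. In cDC2s 10 were tested, of which 1 fell with BimS and 3 with RIPK3 medium, 10% and 30% where 7.01% and 7.21% of all genes were called. Their medians were -0.15 and -0.23 in cDC1s and -0.32 and -0.28 in cDC2s, where the medians over all genes were -0.0185 and -0.0217. Cx3cl1, the ligand of Cx3cr1, was at 10.1 ± 2.32, 5.32 ± 1.19 and 3.36 ± 0.901 CPM in cDC1s with WT, BimS and RIPK3 medium, with log2 fold changes of -0.93 ± 0.197 (adjusted p = 0.00449) and -1.57 ± 0.214 (6.48e-05). Cxcl10, a ligand of Cxcr3, fell with RIPK3 medium in cDC1s (-0.69 ± 0.136, adjusted p = 0.000207) and with both media in cDC2s (-0.53 ± 0.127, 0.0114, and -1.29 ± 0.155, 1.08e-05), of which the call with BimS medium in cDC2s was lost without WT replicate 2 or BimS replicate 2. Ccl3, a ligand of Ccr1, rose with RIPK3 medium in cDC1s from 0.735 ± 0.148 to 2.17 ± 1.01 CPM (1.52 ± 0.312, adjusted p = 0.000421). With BimS medium it was at 1.45 ± 0.373 CPM there (0.96 ± 0.330, adjusted p = 0.0510). This difference was called in 5 of the 9 other settings and in 4 of the 9 fits that left out 1 cDC1 sample. With RIPK3 medium in cDC2s, the call of Cx3cl1 (-2.01 ± 0.534, adjusted p = 0.0393) was lost in 5 of the 8 fits that left out 1 sample. Its RIPK3 samples were at 1.23 and 0.117 CPM, and its log2 fold change was -4.41 (adjusted p = 0.00150) without RIPK3 replicate 1 and -1.09 (0.260) without RIPK3 replicate 2. That of Ccl9 (-0.55 ± 0.163, 0.0468), a ligand of Ccr1, was lost in 6 of these fits and in 5 of the 9 other settings. Cxcl12, the ligand of Cxcr4, had at most 5 counts in a sample.

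Of 16 signaling genes, all tested, 3 rose and 2 fell with BimS and 4 rose and 5 fell with RIPK3 medium in cDC1s, and 1 rose and 3 fell with BimS and 3 fell with RIPK3 medium in cDC2s. These were 31.2% and 56.2% in cDC1s, where 13.2% and 16.5% of all genes were called, and 25% and 18.8% in cDC2s, where 7.01% and 7.21% were. Their medians were -0.0109 and -0.0808 in cDC1s and 0.0121 and -0.0164 in cDC2s. Plcb3, a phospholipase C that Gβγ activates, was at 64.6 ± 1.15, 49.1 ± 1.21 and 44.8 ± 3.04 CPM in cDC1s with the 3 media, with log2 fold changes of -0.40 ± 0.0596 (adjusted p = 4.13e-06) and -0.53 ± 0.0603 (1.38e-08). Gng2, a Gγ subunit, fell in cDC2s, with -0.48 ± 0.105 (0.00622) and -0.81 ± 0.122 (0.000162). In cDC1s it fell with BimS (-0.23 ± 0.0752, 0.0366) and with RIPK3 medium (-0.33 ± 0.0762, 0.00133). The call with BimS medium in cDC1s was lost in 4 of the 9 other settings and in 4 of the 9 fits that left out 1 sample. Rac1, the small GTPase that drives actin protrusion, rose in cDC1s with BimS (0.18 ± 0.0469, 0.00583) and with RIPK3 medium (0.27 ± 0.0469, 4.17e-05). The call with BimS medium was lost in 3 of the 9 other settings and in 1 of the 9 fits that left out 1 sample. That with RIPK3 medium was absent when limma was run on log2 counts without normalization (0.384).

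Of 14 desensitization genes, 13 were tested in cDC1s, of which 1 rose and 5 fell with BimS and 1 rose and 6 fell with RIPK3 medium, and 14 in cDC2s, of which 1 rose and 1 fell with each debris type. These were 46.2% and 53.8% of those tested in cDC1s, where 13.2% and 16.5% of all genes were called, and 14.3% with each debris type in cDC2s, where 7.01% and 7.21% were. Their medians were -0.17 and -0.30 in cDC1s and -0.0271 and -0.18 in cDC2s. The gene that rose was Arrb1, β-arrestin 1, which uncouples receptors from G proteins. It went from 58.5 ± 3.27 CPM with WT medium to 119 ± 6.83 with BimS and 146 ± 13.3 with RIPK3 medium in cDC1s, and from 18.1 ± 0.670 to 40.7 ± 5.79 and 46.9 ± 5.34 CPM in cDC2s. The log2 fold changes were 1.03 ± 0.0627 and 1.32 ± 0.0626 in cDC1s (adjusted p = 1.82e-14 and 2.44e-17) and 1.17 ± 0.112 and 1.36 ± 0.122 in cDC2s (8.09e-07 and 3.06e-07), and they were called in each other setting and with each sample left out. Grk5, a kinase that phosphorylates activated receptors, was at 81.3 ± 4.14, 65.6 ± 1.23 and 49.3 ± 2.87 CPM in cDC1s and fell with both media, with -0.31 ± 0.0575 (adjusted p = 0.000127) and -0.72 ± 0.0589 (4.20e-12). In cDC2s Grk5 was at 11.4 ± 0.201, 14.6 ± 2.02 and 9.96 ± 0.824 CPM, and its interaction for BimS against WT was -0.66 ± 0.122 (adjusted p = 0.00309).

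**Figure D4:**
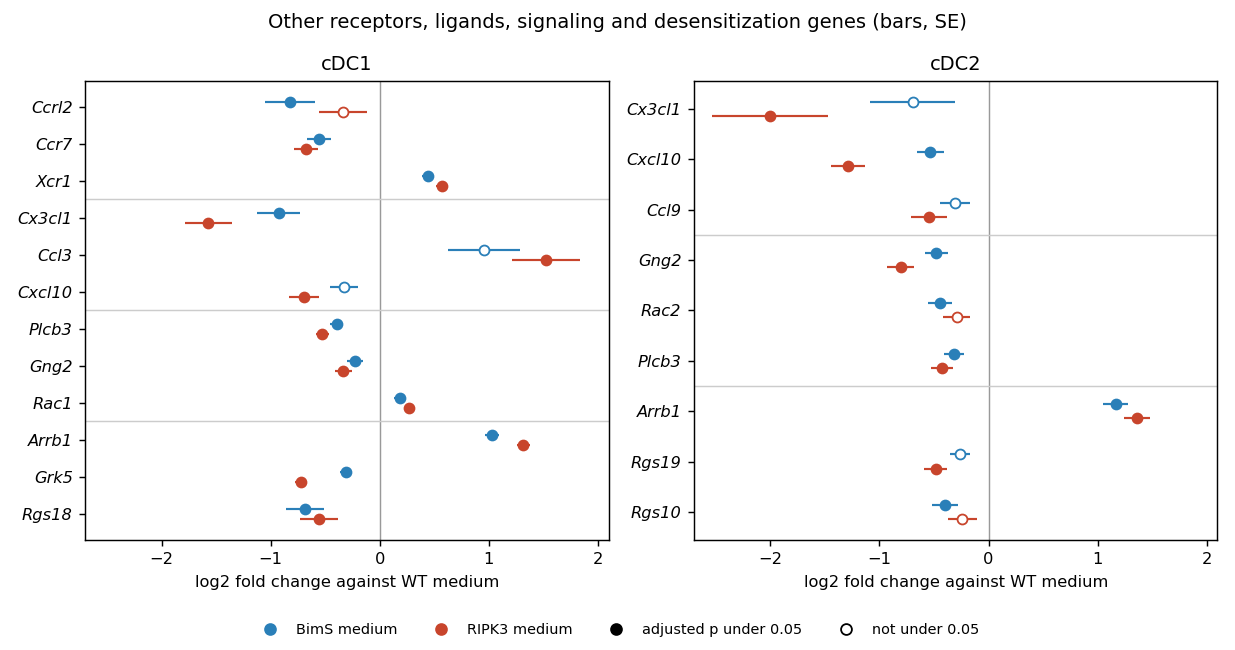
Log2 fold change against WT medium (x axes, bars SE) of the genes named from each list (y axes) in cDC1s and cDC2s, in the order other receptors (cDC1s), ligands, signaling and desensitization, with BimS medium in blue, RIPK3 medium in red and filled symbols for an adjusted p under 0.05. Arrb1 is the gene farthest above 0 in cDC2s, at 1.17 and 1.36, and Cx3cl1 the farthest below 0 in both cell types with RIPK3 medium, at -1.57 and -2.01.

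The genes most like each receptor in pattern were sought among 11592 genes by Pearson's r of log2 CPM over the 17 samples, which share their cell type and medium, so that the cell type difference dominates r. For Cxcr4 these were Grk5 (r = 0.979) and Mbd2 (0.978), for Ccr1 Panx1 (0.995) and Anxa11 (0.994), and for Ccr9 Ttpal (0.973) and Snx24 (0.969). For Cxcr5 they were C1qtnf6 (0.995) and Il1rn (0.994), and for Cx3cr1 Atrnl1 (0.994) and Gcsh (0.994). Ccr6 was followed by Sft2d2 (0.942) and Fbxo32 (0.938), and Ccr2, the receptor with the loosest matches, by Slc25a33 (0.902) and Eif3j1 (0.888). Cxcr3 was below 1 CPM on average and was not included.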

How the data were processed

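RNA was measured by poly(A) RNA-seq in 17 sorted cDC samples, sequenced as paired 54-base reads. The authors trimmed reads with SeqPurge, aligned them with STAR 2.7.10a to GRCm39 and deposited raw counts per Ensembl gene, with 31239 lines, of which 148 without a gene ID (0.0258% to 0.0366% of counts) were left out. A second deposited table gives log2 values scaled by total counts by the authors, and was used for an alternative.

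The deposited counts were tested with edgeR 4.0.16 (robust quasi-likelihood, TMM, R 4.3.3) over genes that were nonzero in 50% or more of a fit's samples, with Benjamini-Hochberg adjustment over all genes and a threshold of 0.05. The media were compared within each cell type, the cell types over all samples with the medium as a term, and the interactions in a fit of 6 groups. CPM for correlations had a prior count of 2. A group with 3 counts or fewer in each sample was held at the limit of detection. Depth bounds precision for the receptors on few counts, and intervals cover the spread between samples. The test was tried on simulated data first. Alternatives were DESeq2 1.42.0, RLE size factors, filterByExpr, no filter, limma 3.58.1 on 3 kinds of log2 values, a replicate block, one fit of all groups (for the cell types, WT samples alone), and leaving out each sample.

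Receptors and lists were chosen with earlier results of these data known. All 8 receptors are named. From each list of other receptors, ligands, signaling and desensitization genes, up to 3 called genes of at least 1 CPM with the largest change against WT were eligible to be named per cell type; Grk5 in cDC2s and Cxcl12 were added after their values were seen. Other receptors in cDC2s and some further items are not reported here. For receptors of at least 1 CPM, the 2 genes of highest r are given.

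The labels number the replicates. Deviations from group means correlated above 0.1 within a cell type for 8 of 9 same-numbered cDC1 pairs (lowest r = 0.0996) and 7 of 7 cDC2 pairs over genes of at least 1 CPM, and for 9 of 9 and 7 of 7 over the 7783 genes with a mean log2 CPM of at least 3. The numbers were taken to pair samples within a cell type, from the data and not from a stated design. The main fits within a cell type still had no block, because the authors' methods name none. Their calls thus do not use this pairing, and the replicate block is given as an alternative. Between cDC1 and cDC2 samples of the same medium and number, 2 of 8 pairs were above 0.1 over genes of at least 1 CPM (median r = 0.0726). Over the 7783 genes it was 5 of 8 pairs (lowest r = 0.0194). The labels do not say that these samples share a culture, so that cell types were compared without a block, with blocks as alternatives.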

Additional observations from a re-analysis of the deposited data

Results flagged for a closer look

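The effect of BimS against WT medium on Grk5 differed between the cell types by an interaction test (edgeR, cDC1 minus cDC2), with a log2 difference of -0.66 ± 0.122 (SE, adjusted p = 0.00309). Grk5 fell in cDC1s (-0.31, adjusted p = 0.000127) and was at 0.35 ± 0.125 in cDC2s (adjusted p = 0.107), where its groups had 11.4 ± 0.201 CPM with WT and 14.6 ± 2.02 CPM with BimS medium (SD, n = 3). The interaction for RIPK3 against WT was -0.52 ± 0.138 (adjusted p = 0.0605).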

How the results depend on the processing

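Of 686 receptor values in other settings, 647 kept sign and call, 6 lost the call, 11 gained it and 22 that were called in neither fit changed sign; with 1 sample left out, these numbers were 892, 6, 1 and 53 of 952. No called value changed sign. For BimS against WT in cDC1s the number of receptors called was 0, and 1 by limma on log2 CPM, 2 by limma on the deposited values, 1 in one fit of all 6 groups and 0 to 1 with a sample left out. For RIPK3 against WT in cDC1s it was 2, and 1 in the fit of all 6 groups and 1 to 2 with a sample left out. For RIPK3 against BimS in cDC1s it was 2, and 0 in that fit, 0 by limma on log2 counts without normalization and 1 to 2 with a sample left out. With the replicate block, the number went from 1 to 3 for BimS and from 1 to 3 for RIPK3 against WT in cDC2s, and from 0 to 1 for RIPK3 against BimS there. For RIPK3 against WT in cDC2s it was 2 without a filter, where Ccr2 was added, and 2 by limma without normalization, where Ccr6 was added. The cause of these changes was not tested.

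Over all genes, the block raised the calls in cDC2s from 1349 to 4103 for BimS against WT, from 1387 to 4124 for RIPK3 against WT and from 73 to 2755 between debris types, and in cDC1s from 810 to 1721 between debris types, where limma without normalization gave 403 and the fit of all 6 groups 265. For BimS against WT in cDC1s limma without normalization gave 1510 in place of 2576. The fit of all 6 groups gave 2147 and 2108 against WT in cDC2s and 244 between debris types, where DESeq2 gave 141, filterByExpr 46, no filter 300, limma without normalization 148 and leaving out RIPK3 replicate 2 gave 0. For the interactions, 164, 217 and 6 calls became 442, 449 and 27 with the block, 315, 371 and 25 without a filter and 67, 109 and 3 by limma without normalization, and DESeq2 gave 261 and 17 for the first and the last. Limma without normalization moved the median log2 fold change of all genes by -0.118 and -0.152 for RIPK3 against WT in cDC1s and cDC2s and by 0.173 between cell types. Depth limits Ccr1 and Cx3cr1 in cDC1s and Cxcr3 and Ccr9 in cDC2s, which rest on at most 13 counts a sample.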
